A study of Mus musculus with 24 samples.

Results

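The genes described here mark the 2 cell types that form the wall of a brain capillary. They are 7 genes of brain endothelial cells (Slc2a1, Abcb1a, Mfsd2a, Cldn5, Pecam1, Flt1 and Tek) and 3 of pericytes (Pdgfrb, Rgs5 and Vtn), taken by name as general markers of these cells. These 10 genes were taken from the 55414 genes counted, and all 10 were among the 14464 genes tested, those with a count of at least 30 in some library. Polyadenylated RNA of the visual cortex was sequenced in 24 libraries, 6 per group. All mice were adult C57BL/6J males housed in a reverse light cycle and used in their dark phase. The dark group received vehicle (PBS) and stayed in the dark, the light group received vehicle and was moved into light, the psilocybin-dark group received 5 mg/kg psilocybin and stayed in the dark, and the psilocybin-light group received 5 mg/kg psilocybin and was moved into light. Tissue was taken after 2.5 h.

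The sample labels and the headings of the study's count table give opposite light exposure, with the same drug, for all 24 libraries. The groups are named here by the headings. Both sources divide the libraries in the same way, so the other naming keeps the levels below and exchanges the words light and dark. This turns the sign of each effect of light and of the interaction of light and psilocybin. The effects of psilocybin in the dark and under light then change places.

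Endothelial cells of brain capillaries are sealed to each other by tight junctions, take up few vesicles, and carry nutrients and waste through dedicated transporters. Pericytes share the basement membrane of these cells, are drawn to them by the growth factor PDGF-B, and help to keep the barrier closed. Neurons depend on this supply of glucose and oxygen, and blood flow in the visual cortex follows visual input.

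Total counts lay between 13552516 and 17906994 per library, and single counts of the 10 genes between 118 (Tek) and 3366 (Slc2a1). For the genes with the fewest counts, Tek and Pecam1, counting error is not negligible beside the spread between libraries. Levels are given in CPM, counts as a fixed share of the TMM-scaled library, TMM being edgeR's scaling for library composition. In bulk RNA, fewer cells of a type and less RNA per cell cannot be told apart. Region markers differed between groups. The summed level of 9 hippocampal genes was 71.7 to 353.5 CPM in the dark libraries and at most 53.6 CPM in any other library, and that of 8 cortical neuron genes was 907.5 to 2787 CPM in the dark group against 2475 to 3417 CPM in the light group. The sum of 10 cerebellar genes was highest in dark libraries 1 (2233 CPM) and 6 (4636 CPM), psilocybin-dark library 12 (2164 CPM) and light library 18 (1341 CPM), and the psilocybin-light libraries reached at most 113.1 CPM. The part of these differences in the results below was not tested. Other fits are given beside the results of the 10 genes, but not for the genes of the further lists. A fit with the hippocampal markers as a covariate cannot separate region from group. That covariate, the mean log2 CPM of 7 genes, was 1.636 to 3.479 in the dark libraries and at most 1.954 in any other library.

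Promoter sequences from RefSeq (build GRCm38.p6) were found for 8 of the 10 genes. The stretch from 250 to 51 bases before the start was searched on both strands for the GC box (GGGCGG), the TATA box (TATAAA), an ETS motif (AGGAAG), the core of the hypoxia response element (ACGTG) and the CRE half-site (TGACG). Of 32851 promoters searched in the same way, 24.6% held the GC box and 9.14% the letters TATAAA. The ETS motif was in 23.9%, the hypoxia core in 12.9% and the CRE half-site in 12.7%. Of the 8 genes, Flt1 held 2 GC boxes, 1 ETS motif and 2 CRE half-sites, which overlap in a palindrome. Vtn held 2 overlapping TATAAA matches, Abcb1a held 2 ETS motifs and Mfsd2a held 1 hypoxia core. No match was found in the windows of Slc2a1, Cldn5, Tek and Rgs5, which says only that these letters are not in these windows. Of the 3 sequences below, the first is of the gene that passed in the comparisons with dark (Slc2a1, chr4:119108495-119108694, plus strand). The next are the most GC-rich window (Flt1, chr5:147726062-147726261, minus strand) and the window with TATAAA matches (Vtn, chr11:78498870-78499069, plus strand). A match is a match of letters only, and whether it works as a promoter element was not tested. The bases nearer the start than this stretch were not searched, so a TATA box there could not be found. Each sequence is 200 bases, 5′ to 3′, with motif matches in capitals.
Slc2a1: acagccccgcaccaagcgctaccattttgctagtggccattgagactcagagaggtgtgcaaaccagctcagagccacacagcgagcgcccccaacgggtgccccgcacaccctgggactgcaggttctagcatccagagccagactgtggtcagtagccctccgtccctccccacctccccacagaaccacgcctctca
Flt1: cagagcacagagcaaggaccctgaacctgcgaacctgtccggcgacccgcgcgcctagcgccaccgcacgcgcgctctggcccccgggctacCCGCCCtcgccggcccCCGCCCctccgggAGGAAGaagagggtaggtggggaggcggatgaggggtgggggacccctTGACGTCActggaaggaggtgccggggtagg
Vtn: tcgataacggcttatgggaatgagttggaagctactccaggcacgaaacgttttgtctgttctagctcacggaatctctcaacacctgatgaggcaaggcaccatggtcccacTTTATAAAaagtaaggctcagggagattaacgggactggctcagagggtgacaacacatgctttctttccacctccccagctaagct
The share of G and C was 62.5% in the Slc2a1 window, 73% in the Flt1 window and 49% in the Vtn window.

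Divided by exon length, the genes spanned a wide range of levels. Exon length covered all annotated exons of a gene rather than the transcripts present. The order below therefore depends in part on the annotation. Over all 24 libraries, Slc2a1 stood at 34.3 CPM per kilobase, above 93.8% of the genes tested. Vtn followed at 23.39 and Cldn5 at 21.09 CPM per kilobase, then Mfsd2a at 12.46, Rgs5 at 10.82, Abcb1a at 4.93, Flt1 at 4.667, Pdgfrb at 2.668, Pecam1 at 2.094 and Tek at 2.03. In the dark group, the neighbours Vtn (22.52 ± 3.841, SD, n = 6) and Cldn5 (21.95 ± 2.869), Mfsd2a (11.59 ± 2.52) and Rgs5 (10.86 ± 1.031), and Pecam1 (1.904 ± 0.1449) and Tek (2.012 ± 0.2953) differed by less than their spread. Both endothelial and pericyte genes were therefore measured well above 0 in every library.

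The effect of light alone was asked by comparing the light with the dark group. Slc2a1 encodes the glucose transporter GLUT1 of the blood-brain barrier and is also made by astrocytes. It was the only gene of the 10 that passed an adjusted p under 0.05, and it rose. Its exons overlap 249 bases of an opposite-strand gene, Gm12868, whose reads may be included. Its level was 112.1, 131 and 153.9 CPM (lowest, median and highest) in the dark group and 137.1, 180 and 202.1 CPM in the light group. The groups overlapped, with 5 of 6 light libraries above the highest dark library. The log2 fold change was 0.38 (SE 0.117), with an adjusted p of 0.0148 by edgeR's quasi-likelihood test with Benjamini-Hochberg adjustment, and a two-sided exact permutation test of 6 libraries against 6 gave p = 0.0108. The call was lost when the hippocampal markers were entered as a covariate, where the log2 fold change was 0.25 (adjusted p = 0.451) and the share of all genes called was 5.68%. Of all genes tested, 31.9% passed the same threshold in this comparison (15.4% higher and 16.5% lower), against 1 of these 10.

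**Figure D1:**
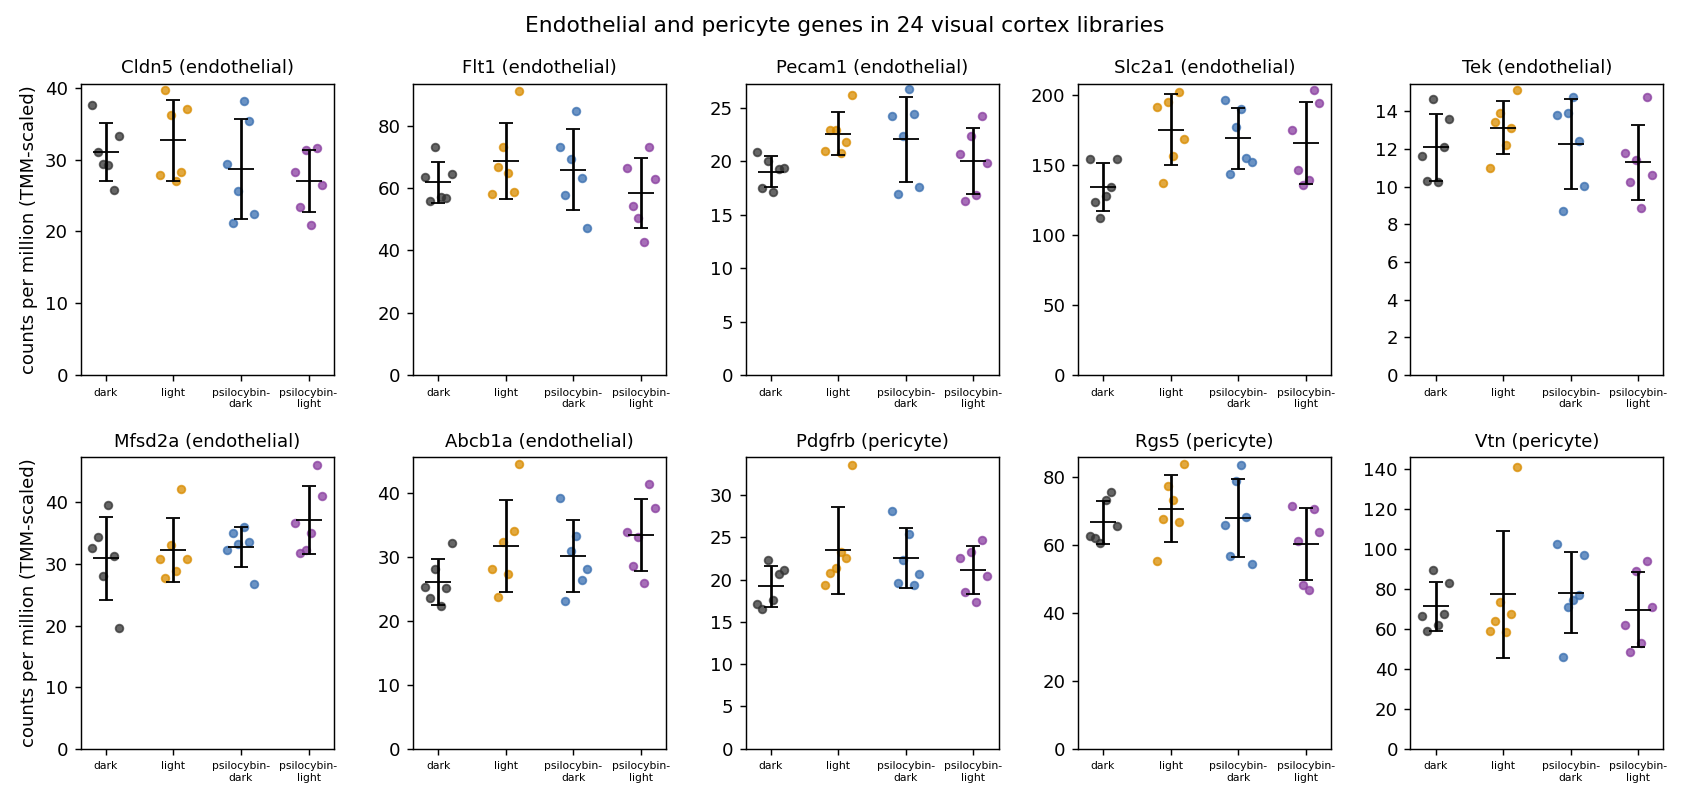
Level of each gene in CPM (TMM-scaled, axis from 0) in the 4 groups; each point is a library, and the black mark and bar are the mean and SD of 6 libraries. Slc2a1 is the gene whose dark libraries, at 112.1 to 153.9 CPM, lie lowest against the other groups, and no gene separates a pair of groups completely.

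The other transporters of the endothelial membrane did not pass the test. Abcb1a encodes the efflux pump P-glycoprotein, which returns drugs to the blood. Its level was 22.24, 25.17 and 32.1 CPM in the dark group and 23.78, 30.22 and 44.43 CPM in the light group, with 3 of 6 light libraries above every dark one. This gave a log2 fold change of 0.28 (SE 0.143, adjusted p = 0.139 by edgeR's quasi-likelihood test), and of 0.16 without light library 18. Mfsd2a, which carries lipids bearing docosahexaenoic acid and restrains vesicle transport, stood at 19.63, 31.98 and 39.62 CPM in the dark group and 27.69, 30.83 and 42.13 CPM in the light group. Its medians were nearly equal, and its log2 fold change was 0.06 (95% interval -0.20 to 0.32).

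Among the endothelial genes of cell contacts and receptors, Pecam1 came nearest to the threshold. Pecam1 encodes an adhesion protein of endothelial junctions. It was at 17.15, 19.34 and 20.89 CPM in the dark group and at 20.78, 22.38 and 26.22 CPM in the light group. Only 1 of 6 light libraries lay within the dark range, and the exact permutation test gave p = 0.00433, where 0.00216 is the smallest p that the 924 splits allow. The log2 fold change was 0.25 (SE 0.108), and edgeR's adjusted p of 0.0836 missed the threshold. Cldn5, the main claudin of the tight junction, had a log2 fold change of 0.07 (95% interval -0.21 to 0.35). Flt1, the VEGF receptor that also acts as a decoy for its ligand, had 0.15 (-0.11 to 0.42), and Tek, the angiopoietin receptor TIE2, had 0.12 (-0.13 to 0.38).

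Of the pericyte genes, Pdgfrb, the receptor for PDGF-B, was at 16.52, 19.17 and 22.3 CPM in the dark group and at 19.36, 21.99 and 33.61 CPM in the light group. The highest value belonged to library 18, which also had high cerebellar, meningeal and red-cell markers. Its log2 fold change was 0.29 (SE 0.125, edgeR adjusted p = 0.0834), and 0.16 without that library (adjusted p = 0.271). Rgs5, a regulator of G-protein signalling, had a log2 fold change of 0.09 (95% interval -0.15 to 0.32). Vtn, which encodes the matrix protein vitronectin, had 0.12 (-0.31 to 0.54), the widest interval of the 10, with light libraries from 58.62 to 141.1 CPM.

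All 10 log2 fold changes were above 0 in this comparison, with a median of 0.137 beside -0.0103 over all genes tested. Vtn went to -0.14 without light library 18, and Mfsd2a to -0.04 without dark library 6 and -0.03 without light library 17, so these signs rest on single libraries. No gene's groups were without overlap, against 10.0% of all genes. At an unadjusted p under 0.05, 3 of the 10 passed, beside 42.0% of all genes.

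The effect of psilocybin in the dark was asked with the same dark libraries, so this comparison is not independent of the first. Slc2a1 rose again, and no other of the 10 genes passed, beside 24.7% of all genes tested (11.9% higher and 12.8% lower). No gene's libraries were without overlap, against 5.58% of all genes, and Slc2a1 alone had an unadjusted p under 0.05, beside 36.3% of all genes. Slc2a1 was at 143.2, 166.2 and 196.1 CPM in the psilocybin-dark group, with 4 of 6 libraries above the highest dark library. Its log2 fold change was 0.33 (SE 0.117, edgeR adjusted p = 0.0398, exact permutation p = 0.0173). This call was lost without any one of libraries 2, 3, 4, 5, 7, 9 and 10, with a log2 fold change between 0.286 and 0.333 and an adjusted p up to 0.0941, and with the hippocampal covariate (0.20, adjusted p = 0.719), a fit in which 0 of 14464 genes were called.

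The other 9 genes gave values on both sides of 0. Pdgfrb, at 19.39, 21.48 and 28.08 CPM, had a log2 fold change of 0.23 (SE 0.126, edgeR adjusted p = 0.192). Pecam1, at 16.91, 23.34 and 26.76 CPM, had 0.21 (SE 0.108, edgeR adjusted p = 0.159). Both groups overlapped with the dark group, with 3 of 6 libraries above it for Pdgfrb and 4 of 6 for Pecam1. Abcb1a had 0.21 (0.12 without library 7), Vtn 0.13, Flt1 0.09, Mfsd2a 0.08, Rgs5 0.03 and Tek 0.02 on the log2 scale. Cldn5 alone was below 0, at -0.11 (95% interval -0.40 to 0.17). The median of the 10 was 0.111, and -0.0171 over all genes.

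Psilocybin with light was likewise compared with the same dark libraries. Slc2a1 rose in this group too, at 135.6, 160.6 and 203.5 CPM, with 3 of 6 libraries above the highest dark library. This was a log2 fold change of 0.30 (SE 0.117, edgeR adjusted p = 0.0438, exact permutation p = 0.0498). It was 1 of 10 genes called, beside 38.4% of all genes tested (17.4% higher and 21.0% lower), and none of the 10 was without overlap, against 15.8% of all genes. At an unadjusted p under 0.05, 2 of the 10 passed, beside 47.3% of all genes. The call was lost without any one of libraries 2, 3, 4, 5, 19, 23 and 24, with a log2 fold change between 0.235 and 0.303 and an adjusted p up to 0.119, and with the hippocampal covariate (0.16, adjusted p = 0.671), where 7.56% of all genes were called.

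Abcb1a lay at the threshold in this comparison. Its psilocybin-light libraries were at 25.85, 33.51 and 41.34 CPM, 4 of 6 above the highest dark library at 32.1 CPM. The log2 fold change was 0.36 (SE 0.143), with an edgeR adjusted p of 0.0502 and an exact permutation p of 0.0216. DESeq2 called it (log2 fold change 0.36, adjusted p = 0.0365). Mfsd2a, at 31.78, 35.83 and 46 CPM, had a log2 fold change of 0.26 (SE 0.131, edgeR adjusted p = 0.118), and passed only without dark library 4, which held the highest level of the dark group (0.34, adjusted p = 0.0418). Without dark library 6, the lowest of that group, its log2 fold change was 0.17.

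Junction, receptor and pericyte genes had values near or below 0 here. Cldn5 was at 20.87, 27.34 and 31.61 CPM, with 2 of 6 libraries below every dark one, and its log2 fold change was -0.20 (SE 0.143, edgeR adjusted p = 0.278), or -0.13 without dark library 1. Rgs5 was at 46.93, 62.52 and 71.52 CPM (log2 fold change -0.14, SE 0.120). Tek had -0.10, Flt1 -0.08 and Vtn -0.03, while Pdgfrb had 0.14 and Pecam1 0.08. In all, 5 of the 10 were above 0, with a median of 0.0207 beside -0.0211 over all genes.

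**Figure D2:**
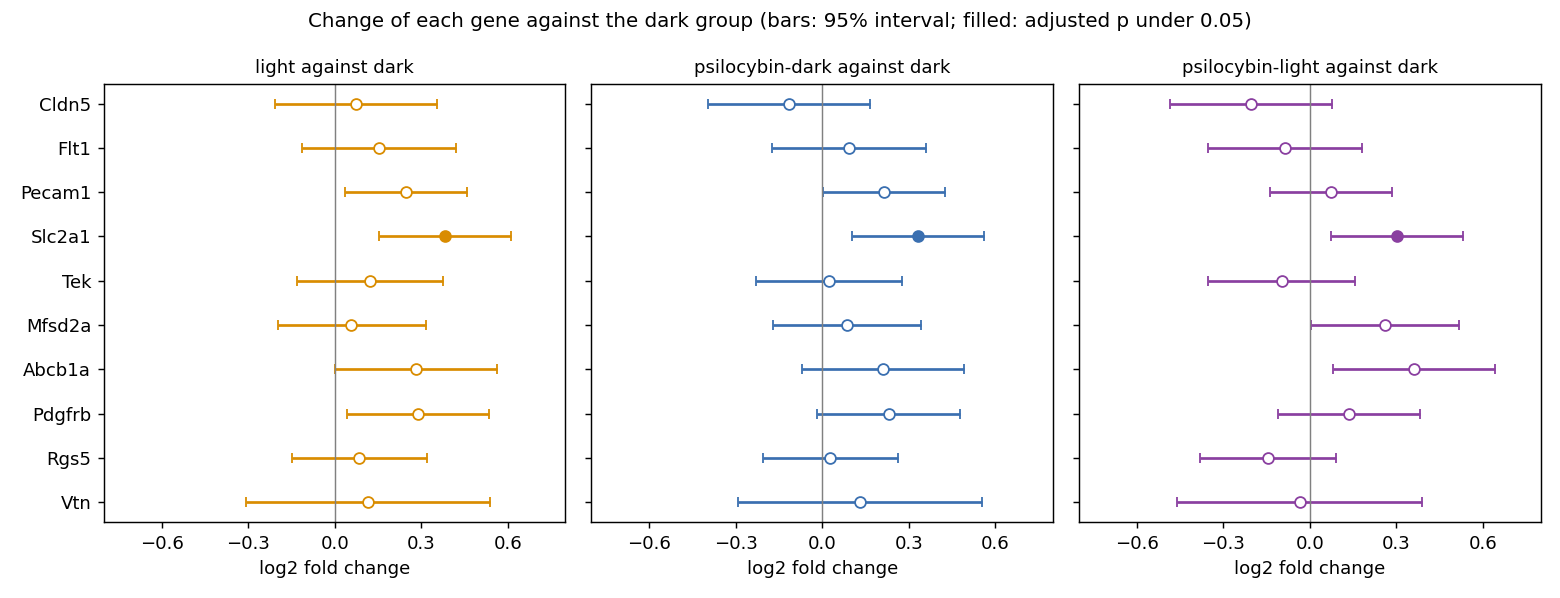
Log2 fold change of each gene against the dark group in the light, psilocybin-dark and psilocybin-light groups, 6 libraries per group; bars are 95% intervals and filled points have an adjusted p under 0.05. Slc2a1, at 0.38, 0.33 and 0.30, is the filled point in each panel, and the 3 panels share the dark libraries.

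Psilocybin was also compared with vehicle under light, and light with dark under psilocybin. None of the 10 genes passed in psilocybin-light against light, beside 0.608% of all genes, in psilocybin-light against psilocybin-dark, beside 6.38%, or in psilocybin-dark against light, beside 0.456%. None passed at an unadjusted p under 0.05 in these comparisons, beside 9.69%, 19.9% and 14.4% of all genes in the same order, and DESeq2 called none. Slc2a1 differed by -0.08 in psilocybin-light against light (95% interval -0.31 to 0.15), by -0.03 in psilocybin-light against psilocybin-dark (-0.26 to 0.20) and by -0.05 in psilocybin-dark against light (-0.28 to 0.18). The lowest value was that of Cldn5 in psilocybin-light against light (-0.28, edgeR adjusted p = 0.561). The median of the 10 in that comparison was -0.162. The half-widths of the intervals over the 10 genes ran from 0.211 to 0.424, so a difference of that size could have been missed.

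Whether the effects of light and psilocybin add up was tested as an interaction on the log2 scale, in which a negative value means that both together gave less than the sum. None of the 10 passed, beside 8.75% of all genes, and 3 had an unadjusted p under 0.05, beside 24.8% of all genes. DESeq2 called none. Slc2a1 had an interaction of -0.41 (SE 0.165, edgeR adjusted p = 0.118), Pecam1 -0.39 (SE 0.153, adjusted p = 0.114) and Pdgfrb -0.38 (SE 0.178, adjusted p = 0.181), which was -0.25 without light library 18. Mfsd2a, at 0.12, was the only one above 0. Without dark libraries 1 and 6 the Slc2a1 interaction passed (-0.53, edgeR adjusted p = 0.0279), in a fit that called 21.6% of all genes. Under the light exposure of the sample labels these interactions take the opposite sign (Slc2a1 0.41).

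Within groups, the genes of the capillary wall varied together from library to library. Each library's log2 level was set against the mean of its group. In psilocybin-light library 23 all 10 genes were above the group mean, and in library 22 of the same group none was. Psilocybin-dark library 10 had 9 of 10 above, and libraries 8, 12, 13 and 20 had 1 of 10. Across 24 libraries the mean deviation of the 7 endothelial genes followed that of the 3 pericyte genes (Pearson r = 0.786, Spearman rho = 0.763, and r = 0.709 without the 2 libraries farthest from the median). The points share library preparation, dissection and scaling.

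**Figure D3:**
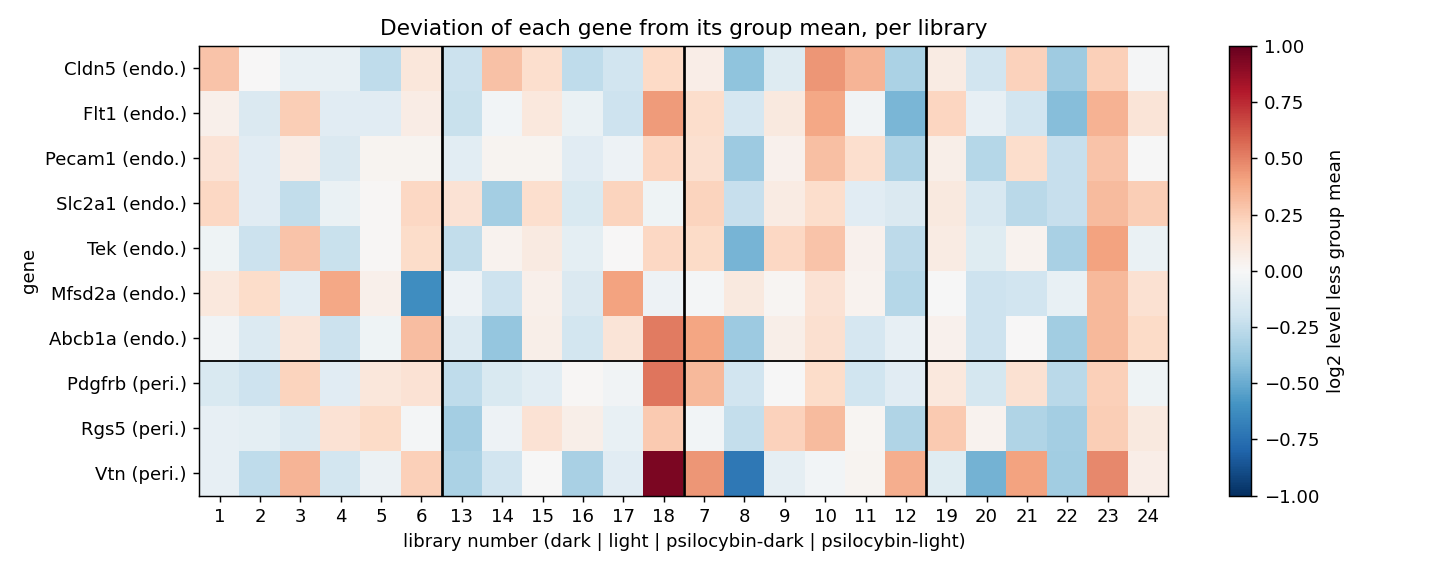
Deviation of each gene's log2 level from its group mean (colour, from -1 to 1) in each of 24 libraries ordered by group. Library 23 is above its group mean in all 10 genes, library 22 in none, and Mfsd2a departs from the pattern of the others.

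Mfsd2a stood apart from the other endothelial genes in this respect. The 36 pairs without it had Pearson correlations of 0.23 to 0.865 (median 0.647), and the 9 pairs with it had -0.147 to 0.331 (median 0.0448). The measure mattered for its highest pairs. With Slc2a1, r was 0.331, rho 0.535, and r 0.199 without the 2 farthest libraries. With Rgs5 these values were 0.312, 0.329 and 0.456. The closest pair was Pecam1 and Tek (r = 0.865, rho = 0.876, and r = 0.814 without the 2 farthest libraries), followed by Abcb1a and Pdgfrb, an endothelial and a pericyte gene (r = 0.842, rho = 0.786, and r = 0.75 without them). Over all genes tested, the 5 whose deviations were most like the endothelial mean were Adgrf5 (r = 0.893), Emcn (0.88), Ptprb (0.862), Tie1 (0.847) and Slco1a4 (0.847). The 5 most like the pericyte mean were Hspg2 (0.913), Cdh5 (0.873), Iqgap1 (0.86), Pdlim5 (0.858) and Vwf (0.856). Cdh5 and Vwf are endothelial identity genes in the lists below, so likeness to this mean does not mark a gene as one of pericytes. The pericyte genes themselves varied together unevenly. Pearson r was 0.799 for Pdgfrb and Vtn, 0.487 for Pdgfrb and Rgs5, and 0.23 for Rgs5 and Vtn (0.103 without the 2 farthest libraries). These correlations are over 24 libraries and are descriptions.

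Further lists of vascular genes were counted in the same fit only, and some genes stand in several lists. The part of the region differences between groups in these counts was not tested. Over all genes tested, 15.4% were higher and 16.5% lower in light, 11.9% and 12.8% in psilocybin-dark, and 17.4% and 21.0% in psilocybin-light, each against dark. Of 24 other genes of endothelial identity, 7 rose and none fell in light against dark, with a median log2 fold change of 0.284. The share called was 29.2%, beside 31.9% of all genes. Cd34, a sialomucin of vascular endothelium, rose by 1.86 (SE 0.191), Ly6a by 0.57 (SE 0.148), Ly6c1 by 0.53 (SE 0.146), the transcription factor Erg by 0.55 (SE 0.155) and the TGF-beta co-receptor Eng by 0.43 (SE 0.124). Cd34 lay far above the median of its list. The median of the 8 cortical neuron genes was 1.02 in this comparison. Which cells or regions carried the rise of Cd34 was not tested. In psilocybin-dark against dark 3 rose and none fell, and in psilocybin-light against dark 5 rose and 2 fell, Kdr (-0.88) and Fli1 (-0.44). Of 14 pericyte identity genes tested, none rose and 1 fell in light, the receptor Notch3 (-0.43, SE 0.157), none passed in psilocybin-dark, and 1 rose and 2 fell in psilocybin-light.

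Barrier genes changed in both directions. Of 9 tight junction genes, 1 fell in light, Cgn, which encodes cingulin (-0.53, SE 0.193), 1 rose and 1 fell in psilocybin-dark, and 4 fell in psilocybin-light. The share called was 11.1%, 22.2% and 44.4%, beside 31.9%, 24.7% and 38.4% of all genes. Of 21 barrier transporters tested, 2 rose and 3 fell in light, 5 rose and 2 fell in psilocybin-dark, and 3 rose and 2 fell in psilocybin-light. These are 23.8%, 33.3% and 23.8% of the list, beside 31.9%, 24.7% and 38.4% of all genes. The lactate and monocarboxylate carrier Slc16a1 fell (-0.51, SE 0.105), as did the zinc exporter Slc30a1 (-0.33, SE 0.0749) and the cationic amino acid carrier Slc7a1 (-0.22, SE 0.0607), while the thyroid hormone carrier Slco1c1 (0.45, SE 0.129) and the transferrin receptor Tfrc (0.21, SE 0.0727) rose in light. Of 9 genes of caveolae and vesicle transport, 2 rose (Cavin3, 0.44, and Cav2, 0.36) and 1 fell (the clathrin heavy chain Cltc, -0.19) in light, and 2 rose in each psilocybin group. The share of this list called was 33.3% in light and 22.2% in each psilocybin group.

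Signals to the vessel wall included genes that neurons and glia also express. Of 12 VEGF and angiopoietin genes, 4 fell in light: Nrp2 (-1.60, SE 0.210), Angpt1 (-1.85, SE 0.389), Nrp1 (-0.53, SE 0.147) and Pgf (-0.81, SE 0.241). In psilocybin-dark 1 rose and 3 fell, and in psilocybin-light 6 fell. The share called was 33.3%, 33.3% and 50%, beside 31.9%, 24.7% and 38.4% of all genes in the same order. Of 18 genes of Wnt signalling at the barrier, 2 rose and 4 fell in light, 2 rose and 5 fell in psilocybin-dark, and 3 rose and 7 fell in psilocybin-light. These are 33.3%, 38.9% and 55.6% of the list, the first close to the 31.9% of all genes. The Wnt target Axin2 rose (0.50, SE 0.0804), while the ligands Wnt7a (-1.68, SE 0.412) and Wnt7b (-1.08, SE 0.223), beta-catenin (Ctnnb1, -0.37, SE 0.0604) and Tspan12 (-0.29, SE 0.0766) fell in light. Of 12 genes of PDGF signalling and pericyte recruitment, 4 rose and 2 fell in light, with the ligand Pdgfb at 0.56 (SE 0.175) and Acvrl1 at 0.39 (SE 0.140) among those that rose. In this list 1 rose in psilocybin-dark, and 1 rose and 4 fell in psilocybin-light. Its share called was 50%, 8.33% and 41.7% in the same order. Of 10 basement membrane genes, 2 rose (Col4a1, 0.46, and Col4a2, 0.42) and 2 fell (Lamb1, -1.04, and Sparc, -1.06) in light, and 1 rose and 2 fell in each psilocybin group. The share of this list called was 40% in light and 30% in each psilocybin group.

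**Figure D4:**
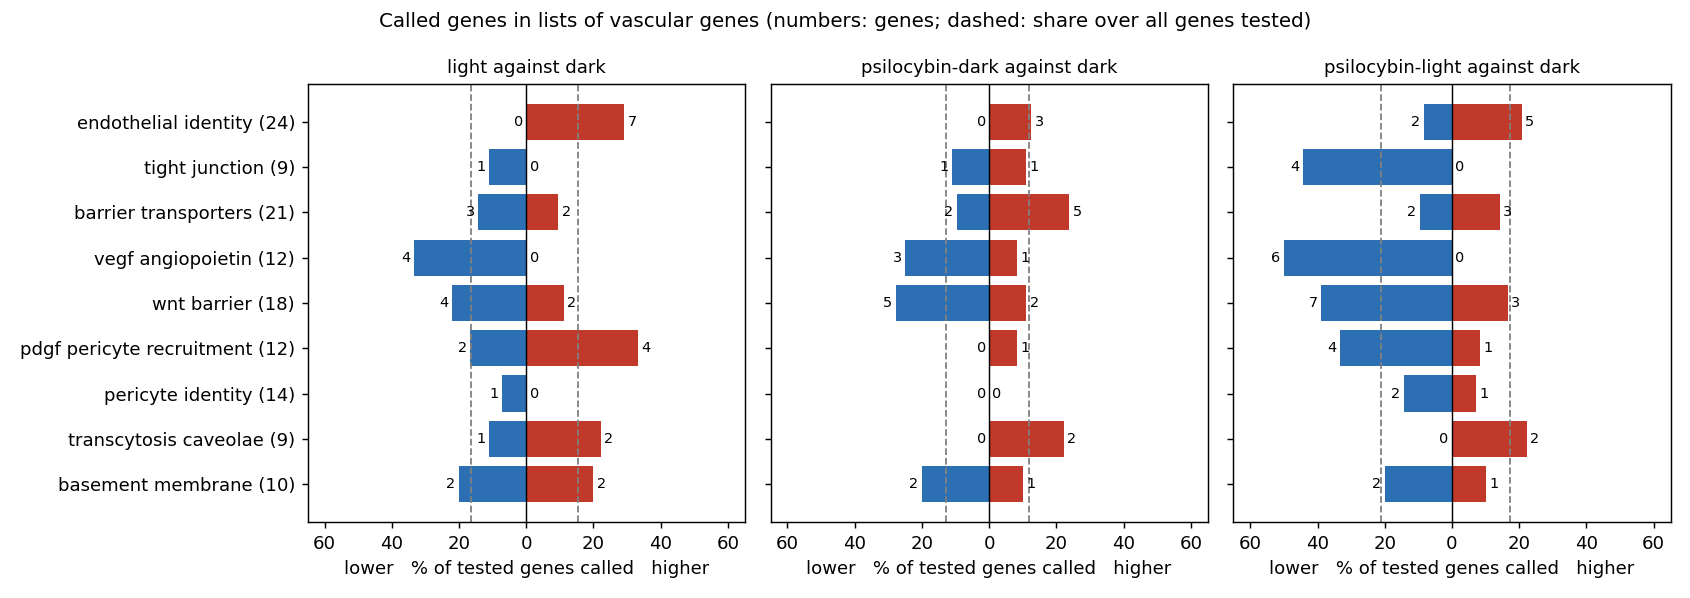
Percent of tested genes in each vascular list that were higher (right) or lower (left) than in the dark group at an adjusted p under 0.05, with the number of genes at each bar and dashed lines at the share over all genes tested. Endothelial identity genes in light (7 higher, 0 lower) lie to the right only, and tight junction (0 higher, 4 lower) and VEGF and angiopoietin genes (0 higher, 6 lower) in psilocybin-light to the left only.

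Markers of other cells and regions moved in the same comparisons, and their part in the results above was not tested. Over all genes tested, 31.9% were called in light, 24.7% in psilocybin-dark and 38.4% in psilocybin-light, each against dark. In light against dark, 1 of 7 smooth muscle genes tested (Mylk, -0.99) and 1 of 12 fibroblast genes (Dcn, -3.38) fell, as they did in both psilocybin groups. None of 5 red cell genes passed in any of the 3 comparisons by edgeR. Of 7 astrocyte genes, Aldh1l1 rose (0.39) and Gja1 (-0.36) and Aqp4 (-0.78) fell in light. The median of this list was -0.226 in light, -0.229 in psilocybin-dark and -0.408 in psilocybin-light. Its sum was 4512 to 5090 CPM in dark, 4096 to 5025 in light, 4660 to 5431 in psilocybin-dark and 3642 to 4132 in psilocybin-light. Slc2a1 is also made by astrocytes, and the part of this list in its rise was not tested. In light, 2 of 6 microglial genes rose (33.3%, close to the share of all genes) and none of 6 oligodendrocyte genes passed. Of 6 choroid plexus genes tested, 1 rose (Ttr) and 2 fell (Sostdc1 and Prlr), and 1 of 3 ependymal genes (Ccdc153) fell. Of the region lists in light, 4 of 7 hippocampal and 2 of 3 hypothalamic genes tested fell, 2 of 6 striatal and 5 of 8 cortical genes rose, and none of 10 cerebellar or 6 thalamic genes passed. All 10 cerebellar genes fell in psilocybin-light, against a dark group in which libraries 1 and 6 had sums of 2233 and 4636 CPM. The other dark libraries had 86.88 to 194.1 CPM, and the psilocybin-light libraries 34.45 to 113.1 CPM.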

How the data were processed

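Polyadenylated RNA of the visual cortex was sequenced in 24 libraries. The authors trimmed reads with cutadapt, mapped them with STAR to GRCm39 according to the methods (the submitters' processing notes name mm10), and used HTSeq for counts over Ensembl genes. The deposited values are these raw counts, without normalization. The strand setting was not given in the sources used here, so reads of the 2 strands cannot be told apart: exons of Slc2a1 overlap 249 bases of the opposite-strand gene Gm12868, those of Mfsd2a 131 bases of 4933421A08Rik, and those of Abcb1a 553 bases of Gm42686.

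Groups were taken from the headings of the study's count table. The 10 genes and the lists were chosen with earlier results of these data known. Counts were fitted in R 4.3.3 with edgeR 4.0.16 (TMM, quasi-likelihood, 1 term per group, 24 libraries). The fit kept genes that reached 30 counts in some library (14464, of which GENCODE names 14427), and genes were called at a Benjamini-Hochberg adjusted p under 0.05 over all of them. The interaction was psilocybin-light less light less psilocybin-dark plus dark. Intervals are at the 95% level from the standard error. Deviations used log2 CPM with a prior count of 2. The lists' named genes were up to 5 with the smallest adjusted p in light against dark among those called; genes named only for other comparisons were chosen after their values were seen. The common biological coefficient of variation was 0.182. The fit was tested on simulated data. Within groups, all 60 pairs of libraries differed by more than sampling noise (chi-square per degree of freedom at least 3.02). No source names cage or batch, so p-values measure the spread between these libraries. Alternatives were DESeq2 1.42.0, its size factors, filterByExpr, no filter, the compared groups alone, the sample labels' exposure, a hippocampal covariate and libraries left out. Figures were drawn with matplotlib 3.10.9.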

Additional observations from a re-analysis of the deposited data

Results flagged for a closer look

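In the light group, library 18 lay far from the other 5 in 2 pericyte genes. Its Pdgfrb level was 33.61 CPM, with the nearest library at 23.24 CPM, a gap of 0.728 of the group's range. Its Vtn level was 141.1 CPM, with the nearest library at 73.2 CPM, a gap of 0.823 of the range. Dixon's critical value for 6 libraries is 0.625, and 40 groups of values (10 genes in 4 groups) were screened, in which chance alone flags about 1 in 20. The same library had the highest sums in the light group for fibroblast and meningeal (415 CPM), red cell (170.6 CPM), endothelial identity (608.6 CPM) and cerebellar (1341 CPM) genes. The part of these in the 2 values was not tested.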

How the results depend on the processing

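The count of called genes moved in the following fits. For light against dark (1) it was 2 with only the compared groups in the fit and 0 with the hippocampal covariate. For psilocybin-dark against dark (1) it was 0 without a filter, with only the compared groups, with the sample labels' exposure and with the covariate, 2 without libraries 1, 6, 12 and 18, and 0 to 1 with single libraries left out. For psilocybin-light against dark (1) it was 2 with DESeq2, with its size factors, with filterByExpr, without dark libraries 1 and 6 and without libraries 1, 6, 12 and 18, 0 without a filter, with the sample labels' exposure and with the covariate, and 0 to 2 with single libraries left out. For the interaction (0) it was 1 without dark libraries 1 and 6 and 2 without libraries 1, 6, 12 and 18 (Slc2a1 -0.55 and Pecam1 -0.43), in fits that called 21.6% and 27% of all genes. The share of all genes called in psilocybin-light against dark was 43.4% and 48.2% in those fits. Leaving out libraries 1, 6, 12 and 18 was chosen after seeing the data; Abcb1a in psilocybin-light (0.45) and Pecam1 in psilocybin-dark (0.31) then passed against dark. With only the compared groups, Pecam1 passed in light against dark (0.24), and Abcb1a (0.36) in place of Slc2a1 (0.30) in psilocybin-light against dark. With the sample labels' exposure the count was 1 in psilocybin-light against light and in psilocybin-dark against light, by construction of the naming. The log2 fold change of Slc2a1 in light against dark turned sign, to -0.38. Its values for psilocybin in the dark and under light changed places. They became -0.0804 in psilocybin-dark against dark and 0.33 in psilocybin-light against light. Likewise, psilocybin-light against dark became -0.0505 and psilocybin-dark against light 0.30. The interactions also turned sign (Slc2a1 0.41), with none called. Slc2a1 in light against dark was called in all 24 fits that left out 1 library (0.336 to 0.445). With the covariate, 5.68%, 0% and 7.56% of all genes were called in the 3 comparisons with dark and 0% for the interaction. The cause of the other changes was not tested. No paired analysis was possible because the sample labels do not give the litter of a library. The paper states that littermates were placed in the groups at random.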
